A study of Mus musculus with 18 samples.

Results

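The Reg genes (regenerating islet-derived genes) encode small secreted C-type lectins that epithelial cells release into the gut lumen. Reg3g and Reg3b are antimicrobial proteins of the small intestine, Reg3g acting on Gram-positive and Reg3b mainly on Gram-negative bacteria, and their transcripts are induced by microbial signals through MyD88 and by interleukin 22 through STAT3. Reg1 and Reg2 were first described in regenerating pancreatic islets, and Reg4 marks a subset of intestinal secretory cells. Here the 6 members Reg1, Reg2, Reg3a, Reg3b, Reg3g and Reg4, taken by gene name, were described in the 55335 genes of a count table. All 6 were among the 21349 genes that passed the filter on low counts, Reg2 through KO libraries alone.

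Each of the 18 libraries holds RNA of small intestinal crypts from a mouse 8 to 12 weeks old with LoxP sites in its Prmt1 alleles. KO mice also carried the tamoxifen-dependent recombinase CreERT2 driven by the villin promoter, which is active in the intestinal epithelium and not in immune or stromal cells. WT mice were littermates with the LoxP alleles and no recombinase, and all mice of either genotype received 2 mg tamoxifen per injection. Crypts were collected at day 2 (after 2 injections), day 7 or day 14 (after 5 injections), with 3 KO and 3 WT mice per day and 1 library per mouse. Total counts per library ranged from 12844642 to 31493484. Levels are given in CPM (counts scaled to the normalized size of each library). A gene was called a DEG when the adjusted p of the quasi-likelihood test of edgeR, after Benjamini-Hochberg adjustment over the 21349 genes, was under 0.05.

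Prmt1, the targeted gene, measured 15.8, 13.1 and 14.3 CPM in the KO libraries and 27.1, 26.5 and 26.1 CPM in the WT libraries of day 2. Its levels were 13.6, 17.4 and 16.4 CPM in KO and 22.3, 25.9 and 23.1 CPM in WT at day 7, and 16.1, 14.95 and 15.1 CPM in KO and 25.2, 30.6 and 20.2 CPM in WT at day 14. Every KO library lay below every WT library of its day.

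Of the members, 5 lie in a cluster of 98216 bases on chromosome 6 of mm10, from 78370657 to 78468872, in the order Reg3b, Reg3d, Reg3a, Reg2, Reg1 and Reg3g. Reg3d is the family's other row in the table and is not a member. Reg3g and Reg3d lie on the minus strand and the others of the cluster on the plus strand. Reg4 lies alone on chromosome 3, from 98222156 to 98236748. The table holds no other gene row inside the cluster, and no member overlapped another gene row, although strand was not used in the counting. In GENCODE transcripts, taken from an earlier release than that of the count table, no window of 50 bases was shared between any of the 7 genes. The closest pairs were Reg1 and Reg2, with 79.7% identity over 556 aligned bases, and Reg3b and Reg3g, with 77.0% over 548 bases.

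The members differed widely in level. Per kilobase of exon, the mean level over the 18 libraries was 1018 CPM for Reg3b, 232.6 for Reg3g, 215 for Reg1, 108 for Reg4, 71.8 for Reg3a and 0.276 for Reg2. On this scale Reg3b ranked 62nd among the tested genes. The exon length that the table gives for Reg3g, 2114 bases, is about that of its longest annotated transcript. That of Reg3b, 1142 bases, is above its longest annotated transcript of 783 bases. Per-kilobase levels of both genes depend on these lengths. The 6 members together took 0.0649% to 0.409% of a library's counts. Reg2 was near the limit of detection, with 0 to 21 counts in a library. Reg3d measured 0.371 to 5.94 CPM.

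**Figure D1:**
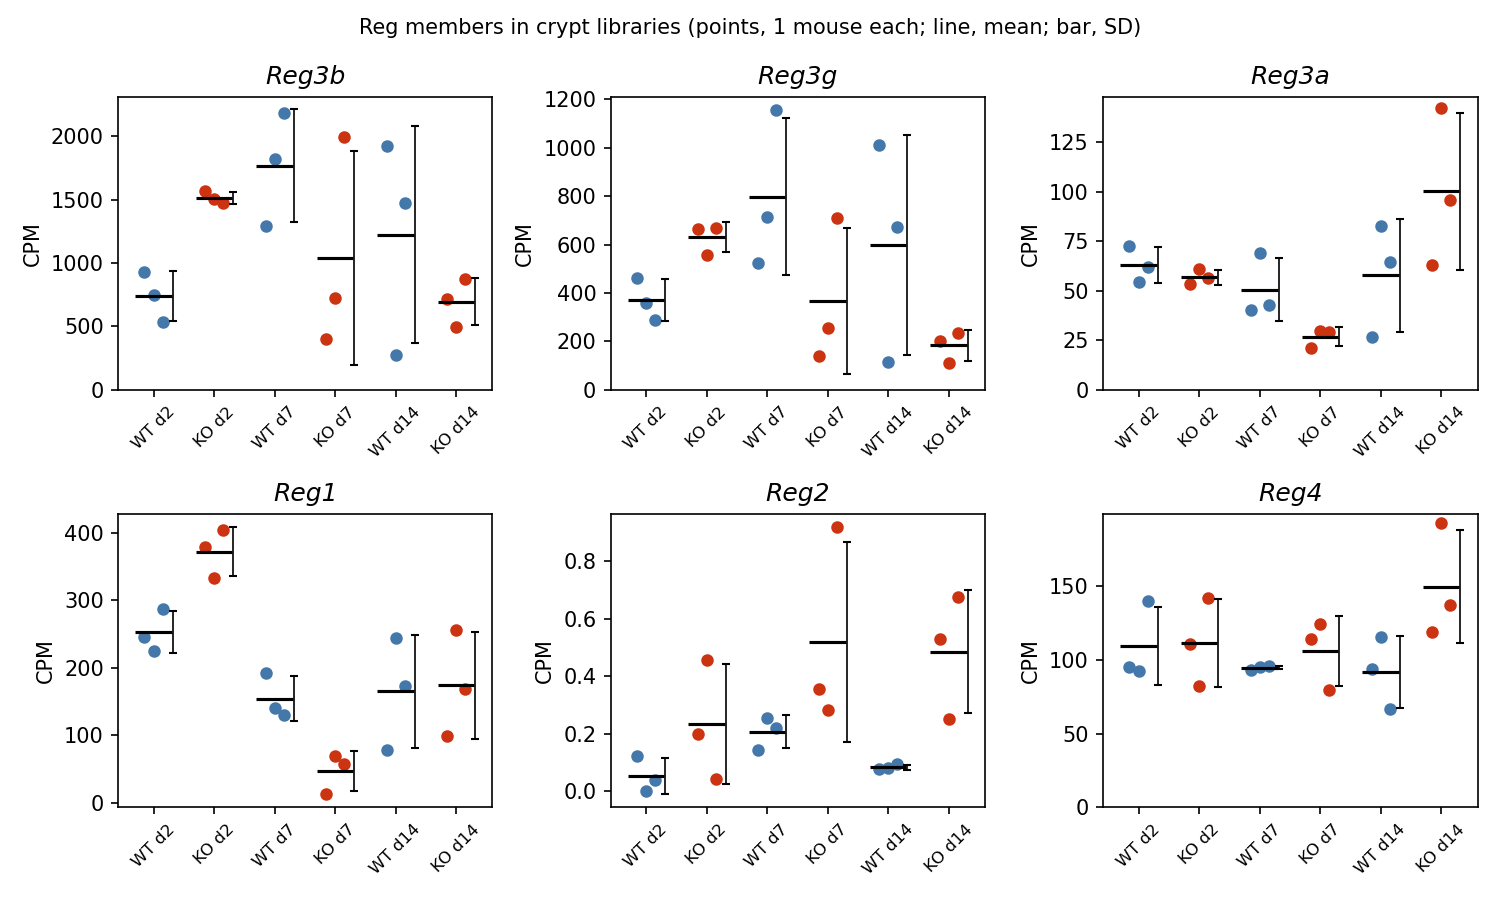
CPM of each Reg member in each of the 18 libraries, by genotype and day after the first tamoxifen injection (WT in blue, KO in red). Points are single mice, lines group means and bars SDs of 3 libraries, and each panel has its own axis, since Reg3b ran from 272 to 2182 CPM and Reg2 from 0 to 0.917 CPM.

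KO was first compared with WT on each day. Only KO mice carried CreERT2, so loss of Prmt1 and activity of the recombinase cannot be told apart in these comparisons. At day 2, 0 of 6 members were DEGs in edgeR's test, beside 0.0328% of all genes, with 1 member, Reg2, at an unadjusted p under 0.05 beside 3.33% of all genes, and 0 called by DESeq2 beside 0.0487%. Shares for DESeq2 are over the genes to which it gave an adjusted p. At day 7, 1 of 6 members, Reg1, was a DEG, lower in KO, beside 17.3% of all genes. There 2 had an unadjusted p under 0.05 beside 29.9% of all genes, and DESeq2 called 2 beside 16.2%. At day 14, 0 of 6 were DEGs in edgeR's test beside 7.92% of all genes. At an unadjusted p under 0.05 there were 4, Reg2, Reg3a, Reg3g and Reg4, beside 21.6% of all genes, and DESeq2 called 1 beside 9.11%. Reg2 could be tested because of its level in KO, so its place in these counts is no support for a difference. The 1 member called at day 7, of 6, was a share near that over all genes. The median log2 fold change of the 5 members other than Reg2 was 0.56, -0.91 and 0.08 at days 2, 7 and 14, against -0.0048, 0.02 and 0.0022 over all genes tested. In such bulk samples, fewer cells of a type and less RNA per cell cannot be told apart.

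Reg3b, the most abundant member, measured 1564, 1507 and 1471 CPM in the KO libraries of day 2 and 932, 746 and 536 CPM in the WT libraries. All KO libraries were above all WT libraries on that day, and the KO libraries lay close together. At day 7 the levels were 404, 721 and 1996 CPM in KO and 1295, 1824 and 2182 CPM in WT. KO replicate 3 was inside the WT range while the other KO libraries were below it. At day 14 they were 715, 498 and 870.3 CPM in KO and 1926, 272 and 1475 CPM in WT. WT replicate 2 was the lowest of all 18 libraries and lay below every KO library of its day, so the groups overlapped. The log2 fold change of KO against WT was 1.04 (SE 0.59) at day 2, -0.76 (SE 0.58) at day 7 and -0.82 (SE 0.58) at day 14. The adjusted p-values were 0.999, 0.419 and 0.469. At day 7 the change was -0.37 without KO replicate 1 and -1.63 without KO replicate 3, and at day 14 it was -0.32 without WT replicate 1 and -1.29 without WT replicate 2. None of these differences passed the test over all genes.

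Reg3g, which binds peptidoglycan, measured 666, 559 and 669 CPM in KO and 461, 361 and 289 CPM in WT at day 2. All KO libraries were again above all WT libraries. At day 7 it measured 137, 256 and 709 CPM in KO and 524, 714 and 1158 CPM in WT, with KO replicate 3 again inside the WT range. At day 14 it measured 203, 109.95 and 236 CPM in KO and 1013, 113 and 673 CPM in WT. Replicate 2 was the lowest library of both groups on that day in Reg3g, as it was in Reg3b. Libraries of the same number deviated together over all genes at day 14 (r of 0.160 to 0.227), and between them Reg3g was lower in KO in 3 of 3 pairs and Reg3b in 2 of 3. The log2 fold change was 0.77 (SE 0.65), -1.12 (SE 0.66) and -1.71 (SE 0.67) at days 2, 7 and 14, with adjusted p-values of 0.999, 0.282 and 0.144. Without WT day 14 replicate 2 the day 14 change was -2.20 with an adjusted p of 0.0271, so this library decided the call, and without WT replicate 1 it was -1.09. With the replicate number as a block in a fit of only the day 14 libraries, chosen after seeing the data, it was -1.31 (adjusted p = 0.171), and that of Reg3b was -0.46 (adjusted p = 0.606). The day 7 change was -0.71 without KO replicate 1 and -1.99 without KO replicate 3.

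Reg3b and Reg3g varied together among the libraries. Over the 18 libraries Pearson's r of their log2 CPM was 0.948, and over deviations from the group means it was 0.988. Each was the gene most like the other among 21348 tested genes by either measure, which describes these 18 libraries only. Tifa, an adaptor in bacterial sugar sensing, was the next gene for both by log2 CPM, with r of 0.895 for Reg3b and 0.908 for Reg3g. After it came Gm44694 (r = 0.870), Alpk1 (r = 0.869) and Gm45191 (r = 0.862) for Reg3b, and Cbx3-ps8 (r = 0.877), Saa1 (r = 0.859) and Celsr1 (r = 0.851) for Reg3g. Alpk1 is the kinase that acts before Tifa in that pathway, and Saa1 is an acute-phase gene. By deviations from the group means, the genes most like Reg3b after Reg3g were Tifa (r = 0.932), Map3k8 (r = 0.927), Tnfrsf13c (r = 0.927) and H2-Ob (r = 0.925). Those most like Reg3g after Reg3b were H2-Ob (r = 0.929), B3galt5 (r = 0.929), Cd22 (r = 0.924) and Lrrk2 (r = 0.922). Tnfrsf13c and Cd22 encode receptors of B cells, at mean levels of 0.755 and 1.82 CPM, and the part of such cells in the Reg values was not tested.

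The ratio of Reg3b to Reg3g, each per kilobase of exon, was described too, and was chosen after its values were seen. It was 4.35, 4.99 and 4.07 in KO and 3.74, 3.83 and 3.44 in WT libraries at day 2. At day 7 it was 5.44, 5.20 and 5.21 in KO and 4.57, 4.73 and 3.49 in WT. At day 14 it was 6.51, 8.39 and 6.83 in KO and 3.52, 4.46 and 4.06 in WT. Every KO library lay above every WT library of its day, including the libraries in which both genes were high or low. The group mean in KO was 1.22, 1.24 and 1.80 times that in WT at days 2, 7 and 14. Because it was chosen after its values were seen, no test of it is given. The size of the ratio depends on the exon lengths used, and by plain counts it ran from 1.86 to 4.53 over the libraries. The order of the libraries does not depend on these lengths.

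**Figure D2:**
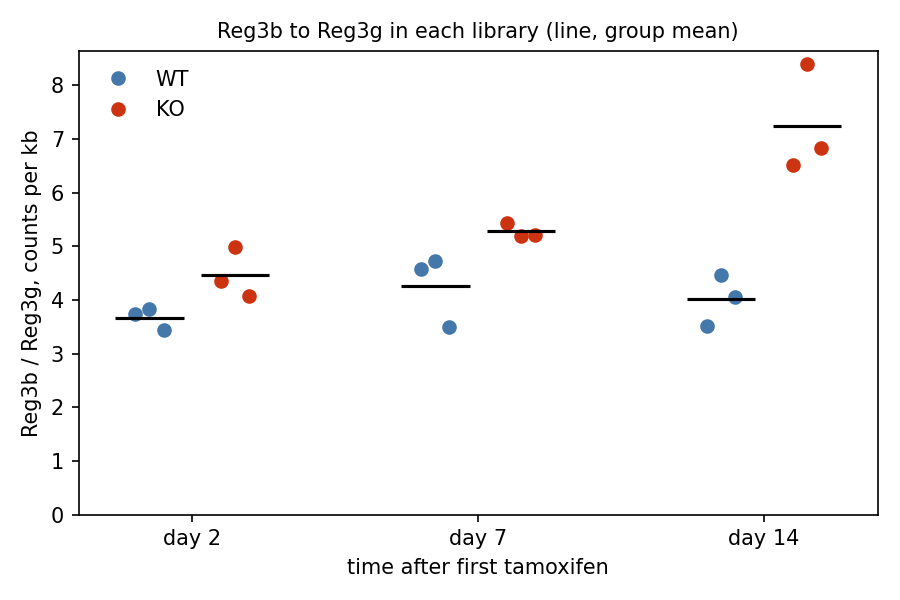
Ratio of Reg3b to Reg3g, each as counts per kilobase of exon, in each library by day and genotype (WT in blue, KO in red), with lines at group means. The KO libraries of day 14 sit between 6.51 and 8.39, above the WT libraries at 3.52 to 4.46.

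The promoters of Reg3b and Reg3g are shown because the transcripts of these genes varied together. Each covers 250 bases before and 50 after the start that RefSeq gives on GRCm38.p6, in which promoters of all 6 members and of Reg3d were found. The RefSeq starts of Reg3b, Reg1 and Reg2 lie inside the table's gene rows and not at their ends. The Reg3b promoter is chr6:78370635-78370934 on the plus strand and that of Reg3g is chr6:78468825-78469124 on the minus strand. Capitals mark the stretches of 12 or more bases that are identical in both.
Reg3b: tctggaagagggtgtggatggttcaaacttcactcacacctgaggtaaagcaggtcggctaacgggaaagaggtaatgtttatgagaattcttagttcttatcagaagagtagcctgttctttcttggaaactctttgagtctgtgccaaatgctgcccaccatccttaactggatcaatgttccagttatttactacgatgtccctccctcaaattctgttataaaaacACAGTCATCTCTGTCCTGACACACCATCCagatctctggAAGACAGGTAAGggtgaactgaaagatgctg
Reg3g: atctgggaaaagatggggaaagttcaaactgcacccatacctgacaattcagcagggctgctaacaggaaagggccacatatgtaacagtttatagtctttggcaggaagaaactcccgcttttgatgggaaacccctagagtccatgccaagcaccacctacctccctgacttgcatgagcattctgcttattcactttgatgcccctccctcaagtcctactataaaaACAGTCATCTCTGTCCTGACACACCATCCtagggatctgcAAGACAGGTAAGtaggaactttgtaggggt
The longer shared stretch has 29 bases and begins at -20 from the start in both genes, and the shorter has 12 bases. Over 294 aligned bases the promoters were 71.4% identical, and Reg3a and Reg3g were 73.9% identical over 249. In all, 4 motifs were searched on both strands of the 32851 promoters. TTCNNNGAA, of the STAT type, was found in the Reg3b promoter as TTCTTGGAA, at -129 from the start, and in that of Reg3d, and not in those of the other 5 members. It was in 8.30% of all promoters. A pair of GAAA repeats with 2 bases between them, of the interferon response type, was in 3.44% of all promoters and in 0 of the members' promoters. CANNTG, the E-box, was in the promoters of all 6 members and in 72.3% of all promoters. CACCTG, which is contained in CANNTG, was searched after it had been noticed in the members' promoters. It was found in Reg2, Reg3a, Reg3b and Reg4, and in 20.2% of all promoters. A match describes letters in this window and not a binding site.

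Reg3a, the third Reg3 lectin among the members, measured 53.3, 60.8 and 56.4 CPM in KO and 72.6, 54.5 and 62.0 CPM in WT at day 2. The groups overlapped. At day 7 it measured 21.3, 29.9 and 29.1 CPM in KO and 40.3, 68.8 and 42.7 CPM in WT. All KO libraries of that day lay below all WT libraries. At day 14 it measured 63.1, 142 and 95.7 CPM in KO and 26.7, 82.5 and 64.5 CPM in WT, and the groups overlapped. The log2 fold change was -0.15 (SE 0.34), -0.91 (SE 0.35) and 0.79 (SE 0.34), with adjusted p-values of 0.999, 0.0849 and 0.191. At day 2 it was -0.035 without WT replicate 1 and -0.24 without WT replicate 2, and at day 14 it was 0.46 without KO replicate 2 and 0.45 without WT replicate 1. Replicate 2 was the highest library of both groups at day 14, and between libraries of the same number Reg3a was higher in KO in 3 of 3 pairs. With the replicate block in a fit of only the day 14 libraries the change was 0.86 (SE 0.14) and was called, with an adjusted p of 0.00445, beside 11.4% of all genes called in that fit. The adjusted p ran from 0.0828 to 0.547 in the other alternatives. The day 7 difference was called by DESeq2, with an adjusted p of 0.0331, and in a fit of only the day 7 libraries, with an adjusted p of 0.0174. It was also called with the replicate block in the model of all libraries. Over all alternatives its adjusted p ran from 0.0174 to 0.303.

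Reg1, a secreted lectin of the pancreas and gut, measured 378, 333 and 404 CPM in KO and 246, 226 and 286 CPM in WT at day 2. All KO libraries were above all WT libraries. At day 7 the order was turned, with 13.7, 69.6 and 58.4 CPM in KO and 193, 140.0 and 131 CPM in WT, all KO libraries below all WT libraries. KO replicate 1 of day 7 was the lowest of the 18 libraries. At day 14 the groups overlapped, with 98.8, 256 and 168 CPM in KO and 78.3, 245 and 172 CPM in WT. The log2 fold change was 0.56 (SE 0.49, adjusted p = 0.999) at day 2, -1.71 (SE 0.50, adjusted p = 0.0306) at day 7 and 0.08 (SE 0.49, adjusted p = 0.953) at day 14. The day 7 call was lost with any of 4 libraries left out. Its adjusted p was 0.0649 without KO replicate 1, 0.0561 without KO replicate 3, 0.0985 without WT replicate 1 and 0.0588 without WT replicate 2. It was 0.0728 without the filter on low counts and 0.0743 in a fit of only the day 7 libraries. The day 14 direction turned without KO replicate 2 (-0.30) and without WT replicate 1 (-0.25), and the change was 0.37 without KO replicate 1 and 0.47 without WT replicate 2. Replicate 2 was the highest library of both groups on that day, and Reg1 was higher in KO in 2 of 3 pairs of the same number, with 0.12 (adjusted p = 0.595) in the fit of that day with the block.

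Reg2 had 3, 8 and 1 counts in the KO and 3, 0 and 1 counts in the WT libraries of day 2. At day 7 it had 8, 8 and 21 counts in KO and 4, 4 and 5 in WT, and at day 14 it had 10, 4 and 10 in KO and 1, 2 and 2 in WT. The KO libraries held 73 counts in all and the WT libraries 22. It passed the filter through 4 KO libraries and 0 WT libraries, so a higher level in KO was part of what let it be tested. A fitted fold rests on few fragments at these counts, so none is given here for KO against WT, and the adjusted p-values were 0.999, 0.173 and 0.0667 at days 2, 7 and 14. In DESeq2 and the other settings it was called once, at day 14 without the filter on low counts, with an adjusted p of 0.0313.

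Reg4, a marker of secretory cells, measured 111, 82.3 and 142 CPM in KO and 95.3, 92.8 and 140 CPM in WT at day 2. It measured 114, 124 and 79.6 CPM in KO and 93.4, 95.3 and 95.7 CPM in WT at day 7. The groups overlapped on both days, and the WT libraries of day 7 lay close together. At day 14 it measured 119, 193 and 137 CPM in KO and 93.9, 116 and 66.8 CPM in WT, with all KO libraries above all WT libraries. The log2 fold change was 0.03 (SE 0.24), 0.16 (SE 0.24) and 0.70 (SE 0.24), with adjusted p-values of 0.999, 0.705 and 0.0809. DESeq2 called the day 14 difference, with an adjusted p of 0.0450. So did the fit of only the day 14 libraries with the replicate block, at 0.71 (SE 0.14) with an adjusted p of 0.0110, which ran from 0.0450 to 0.301 in the other alternatives. Replicate 2 was the highest library of both groups on that day. At day 7 the change was 0.034 without KO replicate 2 and 0.36 without KO replicate 3. At day 2 it was 0.21 without KO replicate 2 and 0.24 without WT replicate 3, and the direction turned without KO replicate 3 (-0.18), WT replicate 1 (-0.06) or WT replicate 2 (-0.08).

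**Figure D3:**
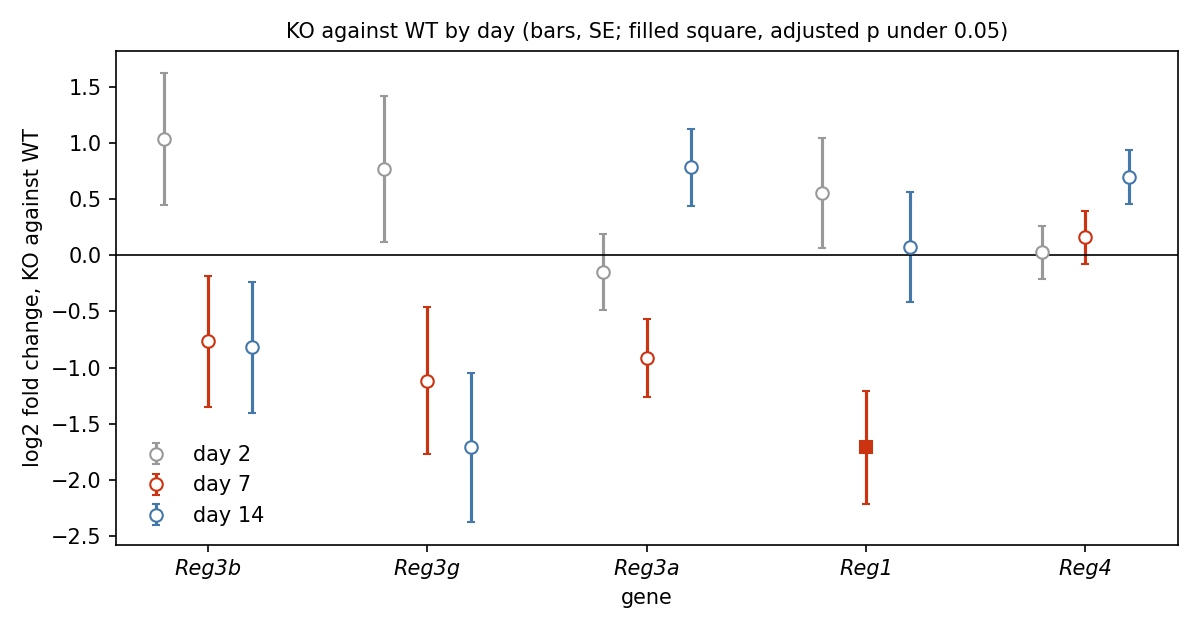
Log2 fold change of KO against WT for 5 members at days 2, 7 and 14, from edgeR's model of all 18 libraries. Bars are SEs, and a filled square marks an adjusted p under 0.05, which Reg1 at day 7 has, at -1.71.

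The difference of the KO effects between days was tested next, since a call on one day alone does not show that days differ. Between days 7 and 2, 0 of 6 members passed edgeR's test beside 4.37% of all genes, with 2 at an unadjusted p under 0.05 beside 18.1% and 1 called by DESeq2 beside 6.73%. The largest was Reg1, whose KO effect was lower at day 7 by a log2 difference of -2.27 (SE 0.70, adjusted p = 0.0865). It was the member that DESeq2 called, with an adjusted p of 0.0369. The fit of all libraries with the replicate number as a block called it too. The same difference was -1.80 for Reg3b (adjusted p = 0.267) and -1.89 for Reg3g (adjusted p = 0.303). Between days 14 and 7, 0 of 6 members passed, beside 0% of all genes, with 2 members at an unadjusted p under 0.05 beside 4.46% of all genes. DESeq2 called 0 members there beside 0.0103% of all genes. The comparisons of single days share no libraries, but these 2 differences share the libraries of day 7.

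Levels over time were then compared within each genotype. In WT, 0 of 6 members were DEGs in edgeR's test between days 7 and 2, beside 0.553% of all genes, with 1 at an unadjusted p under 0.05 beside 22.4% and 0 called by DESeq2 beside 8.14%. Between days 14 and 2 the count in edgeR's test was 0 of 6 beside 1.61%, with 0 at an unadjusted p under 0.05 beside 20% and 0 called by DESeq2 beside 7.99%. Between days 14 and 7 it was 0 of 6 beside 0.0796%, with 0 at an unadjusted p under 0.05 beside 5.18% and 0 called by DESeq2 beside 0.244%. In mean level, Reg3b in WT was 738 ± 198 CPM at day 2, 1767 ± 446 at day 7 and 1224 ± 855 at day 14 (SD, n = 3 each). Its day 7 libraries were all above its day 2 libraries, by 1.26 on the log2 scale with an SE of 0.59 and an adjusted p of 0.221. A fit of only these groups gave an adjusted p of 0.0435.

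In KO, 2 of 6 members were DEGs between days 2 and 7, beside 16% of all genes. Both were lower at day 7, as were 8.8% of all genes. They were also the 2 at an unadjusted p under 0.05 beside 30.6% of all genes, and the 2 called by DESeq2 beside 16.2%. Reg1 went from 372 ± 35.8 CPM to 47.2 ± 29.6 CPM (SD, n = 3 each). This is -2.98 on the log2 scale with an SE of 0.53 and an adjusted p of 0.00166, and it was called in all 14 alternative fits. In WT the mean of Reg1 also went from 253 to 155 CPM, with all day 7 libraries below all day 2 libraries. That difference was -0.71 (SE 0.49) and was not called in edgeR's test (adjusted p = 0.402). Reg3a went from 56.8 ± 3.74 to 26.8 ± 4.75 CPM, which is -1.09 on the log2 scale with an SE of 0.35 and an adjusted p of 0.0448. This call was lost whichever of the 6 libraries was left out, and without the filter on low counts (adjusted p = 0.117). The adjusted p was 0.0856, 0.0910 and 0.103 without KO day 2 replicates 1, 2 and 3, and 0.158, 0.0758 and 0.108 without KO day 7 replicates 1, 2 and 3. Between days 7 and 14, 0 of 6 members were DEGs in edgeR's test beside 0.0468% of all genes, while 2 had an unadjusted p under 0.05 beside 9.27% and DESeq2 called 2 beside 1.03%. These were Reg3a, at 100.3 ± 39.6 CPM at day 14, higher by 1.90 on the log2 scale with an SE of 0.35 and an adjusted p of 0.0628, and Reg1, at 174 ± 79.0 CPM, higher by 1.88 with an SE of 0.51 and an adjusted p of 0.192. All day 14 libraries of both genes were above all day 7 libraries. With DESeq2 the adjusted p-values were 1.71e-05 for Reg3a and 0.0350 for Reg1. Reg3a was also called by edgeR among genes with a mean count of at least 50 (adjusted p = 0.0457), and with the replicate block. Of the marker lists, 6 of 7 Paneth cell and 4 of 4 stem cell markers were also lower in KO at day 7 than at day 2. So were 3 of 8 goblet cell, 1 of 9 enterocyte and 1 of 5 proximal small intestine markers. Of 7 tested pancreatic acinar markers, 2 were lower in edgeR's test, Sycn (-2.64, adjusted p = 0.0180) and Pnliprp1 (-2.04, adjusted p = 0.0128). In contrast, 8 of 8 enteroendocrine markers and 1 of 6 stromal markers were higher. Their part in the fall of Reg1 and Reg3a was not tested. The 2 comparisons over time share the KO day 7 libraries with each other and with KO against WT at day 7.

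Genes that act before the Reg3 lectins, other defence genes and markers of cell types were counted in 15 lists for KO against WT. Each count stands beside the share over all genes, which was 17.3% at day 7 and 7.92% at day 14 in edgeR's test, and 16.2% and 9.11% with DESeq2. For counts at an unadjusted p under 0.05 in edgeR's test, the share was 3.33%, 29.9% and 21.6% at days 2, 7 and 14. Where DESeq2's count differs from edgeR's, both are given. At day 2, edgeR's test called 0 genes of any list, with 6 at an unadjusted p under 0.05 over all lists and 0 called by DESeq2. Of the 14 tested genes of the list of interleukin 22 and gp130 receptors and STAT3, 0 were DEGs in edgeR's test at day 7, with 1 at an unadjusted p under 0.05, and 0 at day 14, with 0 unadjusted, and DESeq2 called 0 on both days. Il22 had 0 counts in every library. The median log2 fold change of this list was -0.05, 0.11 and 0.05 at days 2, 7 and 14. Its most abundant gene, Jak2, ran from 80.5 to 184.7 CPM over the 18 libraries.

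Of 16 genes of Toll-like receptors, NOD2 and MyD88, 2 were DEGs at day 7 and 1 at day 14, all lower in KO, with median log2 fold changes of 0.15 and -0.17. Both shares were under those over all genes, so they are no result about the list. Irak1, a kinase that acts after MyD88, was lower in KO, with log2 fold changes of -1.31 (adjusted p = 4.48e-07) at day 7 and -1.14 (adjusted p = 6.32e-06) at day 14. Tlr5, the flagellin receptor, was lower at day 7 (-0.99, adjusted p = 0.0118), at 0.632 to 1.89 CPM over all libraries, and its adjusted p was 0.0615 without KO replicate 2. Ticam1, an adaptor of Toll-like receptors, was 0.40 at day 7 and was called without KO replicate 3, higher in KO (0.57, adjusted p = 0.00833). The list's most abundant gene was Nfkb1, at 67.2 to 91.2 CPM. Of the reported Reg receptors Extl3 and Egfr, Egfr was lower in KO at day 7 (-0.43, adjusted p = 0.0201). That call was lost without KO replicate 1 (0.157), WT replicate 1 (0.0826) or WT replicate 3 (0.0595).

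Of 16 tested genes of other inducible epithelial defence, 4 were DEGs at day 7 and 1 at day 14, where DESeq2 called 2, with median log2 fold changes of 0.0009 and 0.06. Fut2, the fucosyltransferase of the epithelial surface, was higher in KO at day 7 (1.73, adjusted p = 0.00277). Itln1 (-2.09, adjusted p = 0.00230), Pla2g2a (-1.31, adjusted p = 0.0216) and Ang4 (-2.20, adjusted p = 0.00266) were lower, and these 3 genes are also in the Paneth cell list. The Pla2g2a call was lost without KO replicate 1 (0.0735) or 2 (0.0731) or WT replicate 2 (0.0580) or 3 (0.0671), and Zg16, at 0.51, was called higher in KO without KO replicate 3 (0.73, adjusted p = 0.0241). Ang4 was lower at day 14 too (-1.63, adjusted p = 0.0271), a call lost without KO replicate 1 (0.0726), 2 (0.0623) or 3 (0.114) or WT replicate 1 (0.125). The most abundant gene, Pigr, ran from 2328 to 4990.3 CPM.

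Paneth cell and stem cell markers were lower in KO on the day on which Reg1 was called. All 7 Paneth cell markers were DEGs at day 7, with a median log2 fold change of -2.04. Their summed level at day 7 was 1410.0, 3971 and 3783 CPM in KO and 11150.0, 8993 and 14970.0 CPM in WT, and Lyz1 was the most abundant gene. At day 14, 1 of 7, Ang4, was a DEG, with 6 at an unadjusted p under 0.05, 2 called by DESeq2 and a median of -1.19. The sum was then 7088, 7266 and 5488 CPM in KO and 20390.0, 11990.0 and 9192 CPM in WT, with all KO libraries again below all WT libraries, while Reg1 overlapped on that day. Of 4 stem cell markers, 3 were lower at day 7, with 3 called whichever library was left out. Their summed level was 244.2, 687.5 and 666.2 CPM in KO and 1296, 1535 and 1126 CPM in WT, led by Olfm4. KO replicate 1, the library lowest in Reg1 at day 7, was also the lowest in both sums. At day 14 the stem cell sum was 1282, 1093 and 1050.0 CPM in KO and 1353, 1388 and 1566 CPM in WT, all KO libraries below all WT libraries, with a median of -0.49. DESeq2 called 2 of the 4 on that day and edgeR's test 1. That 1 was Smoc2, which was lower (-0.70, adjusted p = 0.0158), a call lost without KO replicate 2 (0.105) or 3 (0.0548) or WT replicate 3 (0.0550). None of these markers was at 0 in every library, and their part in the Reg values was not tested.

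Reg4 marks secretory cells, and the markers of such cells differed by type. All 8 enteroendocrine markers were higher in KO at days 7 and 14, with median log2 fold changes of 1.29 and 1.45, and DESeq2 called 7 of them at day 7. Their summed level was 789.4, 836.5 and 682 CPM in KO and 218.1, 288.7 and 236 CPM in WT at day 14, the day on which all KO libraries were above all WT libraries in Reg4, and Chgb led it. At day 7 it was 726.9, 624.9 and 587.9 CPM in KO and 271.5, 250 and 260.4 CPM in WT, with all KO libraries also above all WT libraries, while Reg4 overlapped. With 1 library left out, 7 or 8 were called on either day. Of 8 goblet cell markers, 3 were lower at day 7 and 1 at day 14, where DESeq2 called 3, with 5 at an unadjusted p under 0.05 on each day and with median log2 fold changes of 0.11 and 0.02. The goblet cell sum, led by Fcgbp, was 10820.0, 12760.0 and 11120.0 CPM in KO and 13260.0, 13360.0 and 13280.0 CPM in WT at day 14, with all KO libraries below all WT libraries, the opposite order to Reg4. At day 7 it was 13960.0, 10610.0 and 10800.0 CPM in KO and 16200.0, 13880.0 and 16330.0 CPM in WT, and the groups overlapped. With 1 library left out, 2 to 3 goblet cell markers were called at day 7 and 0 to 2 at day 14. The part of these markers in the Reg values was not tested.

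Immune cell markers gave 0 DEGs in edgeR's test at days 7 and 14, with 1 at an unadjusted p under 0.05 on each day and 0 called by DESeq2. Their sum, led by Ptprc, was 42.96, 50.1 and 102.2 CPM in the KO libraries of day 7, where replicate 3 was also the library high in Reg3b and Reg3g. It was 83.7, 40.2 and 76.7 CPM in the WT libraries of day 14, where replicate 2 was also low in Reg3b and Reg3g. In the WT libraries of day 7 the sum was 84.2, 39.5 and 40.9 CPM, and replicate 1, the highest of these, was the lowest of its group in Reg3b and Reg3g. The markers differed among themselves in this. By deviations from the group means over the 18 libraries, as a description added after the data were seen, r with Reg3b was 0.873 for Cd79a, of B cells, and 0.871 for Itgam, of myeloid cells, and r with Reg3g was 0.867 and 0.881 for these genes. With Reg3b it was -0.0995 for Cd3e and 0.041 for Cd8a, of T cells, 0.615 for Ptprc and 0.126 for Csf1r. At day 7, Cd3e (adjusted p = 0.0461) and Cd8a (adjusted p = 0.0324) were called without WT replicate 1, both higher in KO, and Itgam (adjusted p = 0.0442) without KO replicate 3, lower in KO. The part of these markers in the Reg values was not tested.

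Of the other marker lists, 9 enterocyte markers gave 2 DEGs at day 7, of which Fabp2 was higher in KO (1.22, adjusted p = 0.0387) and Lct lower (-1.42, adjusted p = 0.0486), and 1 at day 14, Sis, higher in KO (1.15, adjusted p = 0.0229). Their median log2 fold change was 0.66 at day 7 and 0.70 at day 14, with 6 of 9 at an unadjusted p under 0.05 on each day. With 1 library left out, 0 or 1 were called at day 7 and 0 to 2 at day 14. The enterocyte sum, led by Sis, was 21920.0, 15990.0 and 14620.0 CPM in KO and 12060.0, 12800.0 and 10230.0 CPM in WT at day 7, and 11590.0, 21910.0 and 15970.0 CPM in KO and 4961, 10910.0 and 12940.0 CPM in WT at day 14. Stromal markers gave 0 DEGs in edgeR's test at days 7 and 14, with 0 and 1 at an unadjusted p under 0.05 and 0 called by DESeq2, and their sum, led by Col3a1, ran from 12.3 to 176.3 CPM. Without KO replicate 1, Acta2 was called at day 14, higher in KO (adjusted p = 0.0201). Of 5 proximal small intestine markers, Onecut2 was lower at day 7 (-0.67, adjusted p = 0.0181), a call lost without KO replicate 1 (0.135) or WT replicate 1 (0.113). Of 3 distal markers, led by Fabp6, 0 were DEGs in edgeR's test at days 7 and 14, with 1 at an unadjusted p under 0.05 on each day and 0 called by DESeq2. Their part in the Reg values was not tested.

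Because Reg1 and Reg2 are abundant in the pancreas, 12 acinar markers were measured. Of these, 7 passed the filter, and the summed level of all 12 was 3.51 to 16.1 CPM over the 18 libraries, led by Cela1, while Amy2a5 had 0 counts in every library. The enzyme genes Cpa1, Cpb1 and Prss2 reached at most 24, 22 and 10 counts in a library. In the day 7 libraries, the sum was 3.51, 3.93 and 4.37 CPM in KO and 7.48, 8.18 and 9.72 CPM in WT, with all KO libraries below all WT libraries, as in Reg1, and the sums of the genotypes overlapped at days 2 and 14. Of the 7 tested, Sycn and Pnliprp1 were lower in KO at day 7. The Pnliprp1 call was lost without KO replicate 1 (0.0649) or WT replicate 1 (0.0551). The part of these markers in the Reg1 and Reg2 values was not tested.

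For the other members, the genes most like them over the 18 libraries by log2 CPM were Aqp1 for Reg1 (r = 0.891), Ky for Reg3a (r = 0.831), Tfap2e for Reg2 (r = 0.897) and Tubb2a for Reg4 (r = 0.872). By deviations from group means they were Rhobtb3 for Reg1 (r = 0.909), Adh1 for Reg3a (r = 0.926), Gm47726 for Reg2 (r = 0.859) and Acat2 for Reg4 (r = 0.932). Reg1 and Reg3a had r of 0.705 with each other, and Reg4 had r of -0.628 with Reg3g and -0.557 with Reg3b. These values describe 18 libraries that share their groups. Those of Reg2 rest on 0 to 21 counts in a library, and Tfap2e had a mean level of 0.231 CPM.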

How the data were processed

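The authors aligned paired-end reads of ribosomal RNA-depleted libraries to mm10 with STAR 2.7.3 and deposited raw counts per gene from featureCounts 1.6.4 with GENCODE release 23 (the methods name release 26). Strand was not used, multi-mapped fragments were left uncounted, and a fragment over several genes counted for each. The table's exon length was deposited with it. The 20 genes on the study's list of sex-specific differences were left out before normalization. The paper's mice were of both sexes, matched for sex between KO and control, and the model had no term for sex. Genes were kept with filterByExpr and normalized with TMM. One model of all 18 libraries with 6 group means was fitted with edgeR 4.0.16 (robust quasi-likelihood test, limma 3.58.1, R 4.3.3). SEs are the size of the log2 fold change over the root of the F statistic. Alternatives were DESeq2 1.42.0, its size factors in edgeR, the 20 most abundant genes left out, no filter, a mean count of at least 50, the sex-specific genes kept, a replicate block, fits of the compared groups alone, and each library left out. The code was tested on simulated data. Sequences were compared with blastn 2.17.0 and Biopython 1.88.

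Named genes are the members, Reg3d, Prmt1, list genes (of lists over 8 genes, those called and the most abundant) and, per member, the 5 tested genes with the highest Pearson's r of log2 CPM (prior count 2), and of its deviations from group means. Il22, Ticam1, Zg16 and the acinar genes not called are named beside that rule, after their values were seen. Members and lists were chosen with earlier results of these data known. The results of 1 of the 15 lists and of 1 other marker are not reported here. Same-numbered KO and WT libraries of day 14 deviated together from their group means (r of 0.227, 0.180 and 0.160). At day 2 r was 0.0478, 0.158 and 0.381, also positive in every pair. At day 7 it was -0.159, 0.206 and 0.0787. With the replicate block in the model of all libraries 0 members were called at day 14, as without it, and in a fit of only the day 14 libraries with the block, added after seeing the data, 2 of the 5 tested were called, beside 11.4% of all genes there. The labels do not say what the numbers share. No replicates of a group agreed within counting noise.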

Additional observations from a re-analysis of the deposited data

Results flagged for a closer look

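The KO effect on Reg1 was flagged because all 3 KO libraries lay above WT at day 2 and below WT at day 7. As this order was the rule of the flag, it is no support for opposite effects, and the day 2 difference was not called. The difference of the effects was -2.27 on the log2 scale with an adjusted p of 0.0865 in edgeR's interaction test, so it did not pass the threshold there. DESeq2 called it with an adjusted p of 0.0369. The replicate block in all libraries called it too, and the other alternatives did not. Over the alternatives the adjusted p ran from 0.0369 to 0.183.

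The KO effect differed between days 7 and 2, by the same interaction test, for 4.37% of all genes. It differed for 6 of 8 enteroendocrine, 4 of 7 Paneth cell, 2 of 4 stem cell and 1 of 8 goblet cell markers. It also differed for 2 of the other inducible defence genes (Itln1 and Ang4, both also Paneth cell markers) and for 1 of 16 genes of the Toll-like receptor list (Irak1), a share near that over all genes. Their part in the Reg values was not tested. Groups of 3 libraries were not searched for outlying samples.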

How the results depend on the processing

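For the 60 results of 1 member in 1 comparison, 899 alternative fits were made. In 843 the direction and the side of the threshold were kept, 15 were called in the alternative alone, 13 in the first fit alone, and 28 turned in direction, of which 0 were called. For the members other than Reg2, 89 of 765 fits moved the value by over 1.5 times in the same direction, 82 of them with a library left out. The cause was not tested. The filter on a mean count of at least 50 gave no value for Reg2 or Reg3d, and Reg2 did not pass the filter in most fits of only the groups compared.

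The number of members called in KO against WT at day 7 was 1, and it was 2 with DESeq2, 0 with no filter on low counts and 0 to 1 with 1 library left out. The shares of all genes called in these fits were 16.2%, 9.26% and 9.43% to 19%. At day 14 it was 0, and 1 with DESeq2, 1 (Reg2) with no filter and 0 to 1 with 1 library left out, with shares of 9.11%, 4.66% and 4.73% to 6.08%. For the KO effect of day 7 minus day 2 it was 0, and 1 with DESeq2 beside 6.73%. It was 0 for WT day 7 against day 2, and 1 in a fit of only these groups beside 2.87%. For KO day 7 against day 2 it was 2, and 1 with no filter, beside 8.45%, or with any 1 library left out, beside 10% to 16.2%. For KO day 14 against day 7 it was 0, and 2 with DESeq2 beside 1.03% and 1 with a mean count of at least 50 beside 0.119%.

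The replicate block joined libraries of the same number across all days. At day 7, same-numbered KO and WT libraries deviated from their group means with r of -0.159, 0.206 and 0.0787. With this block, 2 members were called at day 7 in KO against WT, Reg1 (adjusted p = 0.0121) and Reg3a (0.0328), beside 16.4% of all genes in that fit. There was 1 in the KO effect of day 7 minus day 2, Reg1 (0.0451), beside 3.99%, and 1 in KO day 14 against day 7, Reg3a (0.0498), beside 0.0234%. The other comparisons kept their counts. In a fit of only the day 14 libraries with the replicate block, chosen after seeing the data, 2 of the 5 tested were called in KO against WT at day 14, Reg3a and Reg4, beside 11.4% of all genes. The block in all libraries gave 0.13 for Reg3b in the KO effect of day 14 minus day 7 and -0.0769 for Reg1 in WT day 14 against day 7, both of turned direction.

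With 1 library left out, log2 fold changes of uncalled results that turned ran as follows, those of Reg2 resting on few counts. In KO against WT, Reg4 ran from -0.18 to 0.24 at day 2, Reg3d from -1.002 to 0.58 at day 7 and Reg1 from -0.30 to 0.47 at day 14. For the KO effect of day 7 minus day 2, Reg2 ran from -1.79 to 0.41 and Reg4 from -0.0573 to 0.34. For day 14 minus day 7, Reg3b ran from -0.53 to 0.83, Reg3g from -1.08 to 0.30 and Reg3d from -0.15 to 1.52. In WT day 14 against day 2, Reg3a ran from -0.46 to 0.24. In WT day 14 against day 7, Reg1 ran from -0.30 to 0.45, Reg3a from -0.14 to 0.56, Reg3g from -1.01 to 0.0766, Reg4 from -0.24 to 0.16 and Reg3d from -0.63 to 0.21. In KO day 7 against day 2, Reg4 ran from -0.26 to 0.13. In KO day 14 against day 7, Reg2 ran from -0.39 to 0.61, Reg3b from -0.96 to 0.30 and Reg3d from -0.31 to 1.27.

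Counts over all genes moved by over 1.5 times in some of 8 alternative settings. They ran from 2 to 16 for KO against WT at day 2 (7 in the first fit), 777 to 1406 for the KO effect of day 7 minus day 2 (934), 0 to 2 for day 14 minus day 7 (0), 19 to 1453 for WT day 7 against day 2 (118), 28 to 1366 for WT day 14 against day 2 (343), 4 to 59 for WT day 14 against day 7 (17) and 0 to 208 for KO day 14 against day 7 (10). The ratio of Reg3b to Reg3g in KO over WT, with libraries left out as an alternative chosen after seeing the data, was 1.15 to 1.27 at day 2, 1.14 to 1.31 at day 7 and 1.66 to 1.91 at day 14. Low counts limit what can be said of Reg2.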
